A study of Rattus norvegicus with 16 samples.

Results

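Genes of mitosis and the spindle were followed in primary cultures of rat hippocampal neurons in which the transmembrane adaptor protein PRR7 had been knocked down or overexpressed. The set held 40 genes: regulators of the passage from G2 into mitosis, kinetochore proteins, spindle motors and cytokinesis factors. A gene was represented by every array probe annotated with its symbol. By that rule 35 of the 40 genes had a probe (45 probes in all), and Mki67, Ndc80, Cdca3, Ect2 and Cdkn3 had none. A probe had to be well above background in 4 or more samples, and the 31 genes that met this were tested among 22911 genes of the array, and Nek2, Cenpe, Cenpf and Nusap1 fell below that limit.

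The hippocampal cells came from embryos of Sprague-Dawley rats at embryonic day 18 to 19. There were 4 groups of 4 samples each, described as biological replicas. The not transduced group received no virus. The nontargeting group received a lentivirus with a short hairpin RNA (shRNA) that has no target, the knockdown group a lentivirus with a hairpin against the coding region of PRR7, and the overexpression group a lentivirus carrying full-length PRR7 in the FUGW vector. A single hairpin sequence is named for the knockdown, and the overexpression control was a culture without any virus. Each of 8 Agilent 2-colour arrays carried 2 samples of the same group, replicates 1 and 3 in Cy3 and replicates 2 and 4 in Cy5. Knockdown and nontargeting shared a slide, and the other slide held overexpression and not transduced. No probe annotated with the name Prr7 was found, so the knockdown and the overexpression were not checked on their own target.

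A dividing cell copies its DNA in S phase, builds up cyclin B with its kinase CDK1 in G2, and then assembles a spindle whose microtubules attach to the chromosomes at kinetochores. A checkpoint holds the cell until all chromosomes are attached, after which the anaphase-promoting complex marks securin and cyclin B for destruction and cytokinesis divides the cell. Most of these genes are transcribed late in the cycle and lowered in cells that have left it. In a culture of postmitotic neurons, glia and progenitors that still divide are therefore a likely source of their messages. Which cells carried them here was not determined.

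The median background-subtracted intensity of a sample ranged from 73.2 to 150, and 50.2% to 70.5% of the probes were well above background. All 17 neuronal markers with a tested probe were detected in all 16 samples, Map2, Tubb3 and Snap25 among them. The cultures also held glial message: Gfap, Slc1a3, Nes and Sox2 were well above background in every sample. Of the microglial markers Csf1r, Cd68, C1qb and Tyrobp were well above background in all 16 samples, C1qa in 9 and Ptprc in 4. Aif1, Cx3cr1 and Itgam were detected in none. Because RNA was taken from whole cultures, fewer dividing cells and less message per cell cannot be told apart, and no count of cells was used here.

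Many promoters of the set shared sequence features, which are shown for 5 of the members whose transcripts differed between the groups. Each line gives the 250 bases before the start site of the RefSeq promoter table (build GRCr8), written in the direction of transcription. Capitals mark the cell cycle homology region (CHR, TTTGAA or TTCGAA) and the CCAAT box, on either strand, so that ATTGG and TTCAAA are the same motifs read from the other strand. Cdk1 lies at chr20:19265043-19265292 (plus strand), Top2a at chr10:84473094-84473343, Kif22 at chr1:191080879-191081128, Spc25 at chr3:74396719-74396968 and Ccnb1 at chr2:33655226-33655475 (all minus strand).
Cdk1: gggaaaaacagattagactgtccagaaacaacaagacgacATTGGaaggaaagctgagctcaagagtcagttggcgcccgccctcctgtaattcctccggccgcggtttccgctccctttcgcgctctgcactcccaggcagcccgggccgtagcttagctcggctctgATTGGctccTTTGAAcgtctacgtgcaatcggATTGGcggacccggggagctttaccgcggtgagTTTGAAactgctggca
Top2a: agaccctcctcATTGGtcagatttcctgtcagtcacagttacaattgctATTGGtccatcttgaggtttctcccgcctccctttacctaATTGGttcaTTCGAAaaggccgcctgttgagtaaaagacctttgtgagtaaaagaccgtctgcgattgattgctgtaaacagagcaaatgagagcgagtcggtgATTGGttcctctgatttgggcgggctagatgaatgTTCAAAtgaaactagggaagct
Kif22: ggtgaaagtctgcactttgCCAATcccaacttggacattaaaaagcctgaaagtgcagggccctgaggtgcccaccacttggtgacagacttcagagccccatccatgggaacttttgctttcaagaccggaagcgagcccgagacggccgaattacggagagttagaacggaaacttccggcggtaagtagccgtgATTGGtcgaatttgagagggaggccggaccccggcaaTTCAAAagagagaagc
Spc25: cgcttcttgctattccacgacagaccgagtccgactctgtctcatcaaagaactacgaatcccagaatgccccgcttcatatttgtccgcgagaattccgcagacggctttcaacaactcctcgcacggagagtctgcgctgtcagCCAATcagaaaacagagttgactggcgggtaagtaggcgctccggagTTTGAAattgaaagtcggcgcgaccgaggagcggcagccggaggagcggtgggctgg
Ccnb1: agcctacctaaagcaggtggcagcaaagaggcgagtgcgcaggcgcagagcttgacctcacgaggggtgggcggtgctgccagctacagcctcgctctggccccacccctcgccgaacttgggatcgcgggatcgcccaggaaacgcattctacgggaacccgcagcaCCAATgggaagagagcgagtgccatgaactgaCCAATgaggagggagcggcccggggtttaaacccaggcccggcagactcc

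In Cdk1 the CHR matches start 72 and 16 bases before the start site and the 3 CCAAT matches lie between 210 and 49 bases before it. Top2a held 4 CCAAT and 2 CHR matches, Kif22 held 2 and 1, and Spc25 held 1 of each. Ccnb1 held 2 CCAAT boxes, 82 and 50 bases before the start site, and no CHR in this window. The table had a promoter for 35 of the 40 members, and Aurkb, Ccna2, Racgap1, Tpx2 and Ube2c had no entry. A CHR was found in 18 of the 35 (51.4%), against 16.4% of 21851 protein-coding promoters and 17.4% of all 33469 promoters searched. CCAAT was found in 26 (74.3%), against 35.0% of protein-coding promoters. Both motifs stood together in 16 members (45.7%), against 6.08%, and 20 members (57.1%) held 2 or more CCAAT boxes, against 10.6%. The E2F core TTCCCGC, also searched on both strands, matched 0 members and 4.22% of protein-coding promoters. A CHR was present in 4 of the 9 members with a promoter that rose under knockdown. These matches are a description of letters in a window, and binding was not measured.

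**Figure D1:**
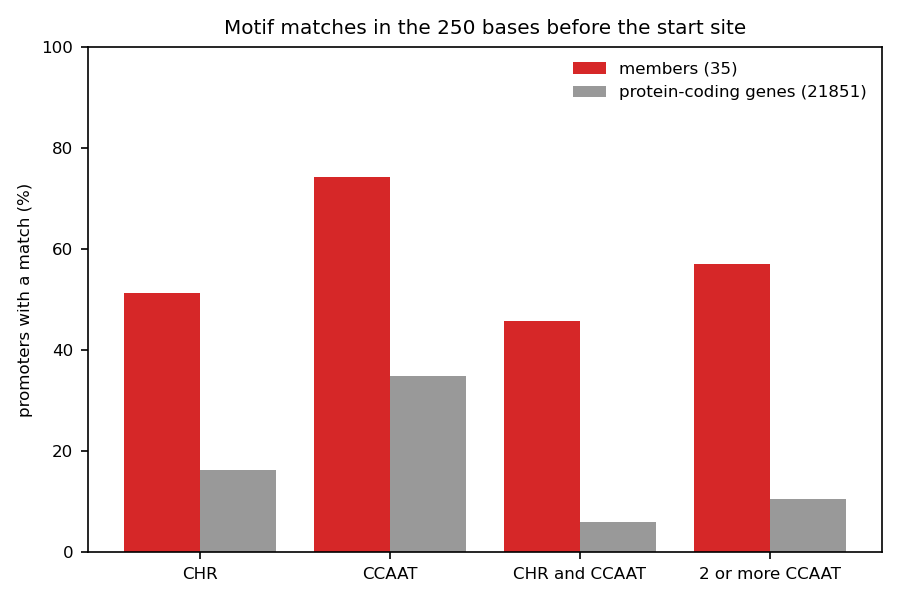
Bars give the percent of promoters with at least 1 match in the 250 bases before the start site, for 35 members (red) and 21851 protein-coding genes (grey). CHR and CCAAT stood together in 45.7% of the members and in 6.08% of the protein-coding promoters.

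Within the slide that held both groups, mitosis genes were higher under PRR7 knockdown than under the nontargeting virus. Of the 31 tested members 11 rose and 0 fell, while 21.5% of all genes passed in this comparison (10.5% rose and 11% fell). The members that rose were Cdk1, Ccna2, Ttk, Mad2l1, Nuf2, Spc25, Kif11, Kif20a, Kif22, Tpx2 and Top2a. The log2 difference was above 0 in 29 of 31 members, ranged from -0.12 to 2.04 and had a median of 0.34, against -0.02 over all genes. In 15 members every knockdown sample lay above every nontargeting sample, which held for 17.5% of all genes, and 0 members were lower without overlap, against 20.4% of all genes. Changes are given as log2 differences with their standard errors (SE) from the fit over all 16 samples, and a gene was called when its p, adjusted by the Benjamini-Hochberg method over all 22911 genes, was under 0.05.

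The nontargeting cultures held less mitotic message than the cultures without virus. Of the 31 members 0 rose and 9 fell, where 22.5% of all genes passed (11.5% rose and 11% fell). Those that fell were Cdk1, Ccnb1, Ttk, Ube2c, Kif20a, Kif22, Tpx2, Prc1 and Top2a. The median log2 difference was -0.42, against 0.03 over all genes, and 11 members were lower in every nontargeting sample than in every not transduced sample, which held for 15% of all genes. These groups lay on different slides, so the virus and the slide cannot be told apart. Without not transduced replicate 4 there were 15 members past the test, and without the not transduced array of replicates 1 and 2 there were 5. This comparison and the one above share the nontargeting samples, and their values are set side by side only as each member's own levels. Group means were lowest in nontargeting for 23 of the 31 members, as for 29.7% of all genes, and highest there for none, against 37% of all genes. Of the other groups, knockdown was highest for 14 members (25.5% of all genes), not transduced for 11 (19.5%) and overexpression for 6 (18.1%).

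**Figure D2:**
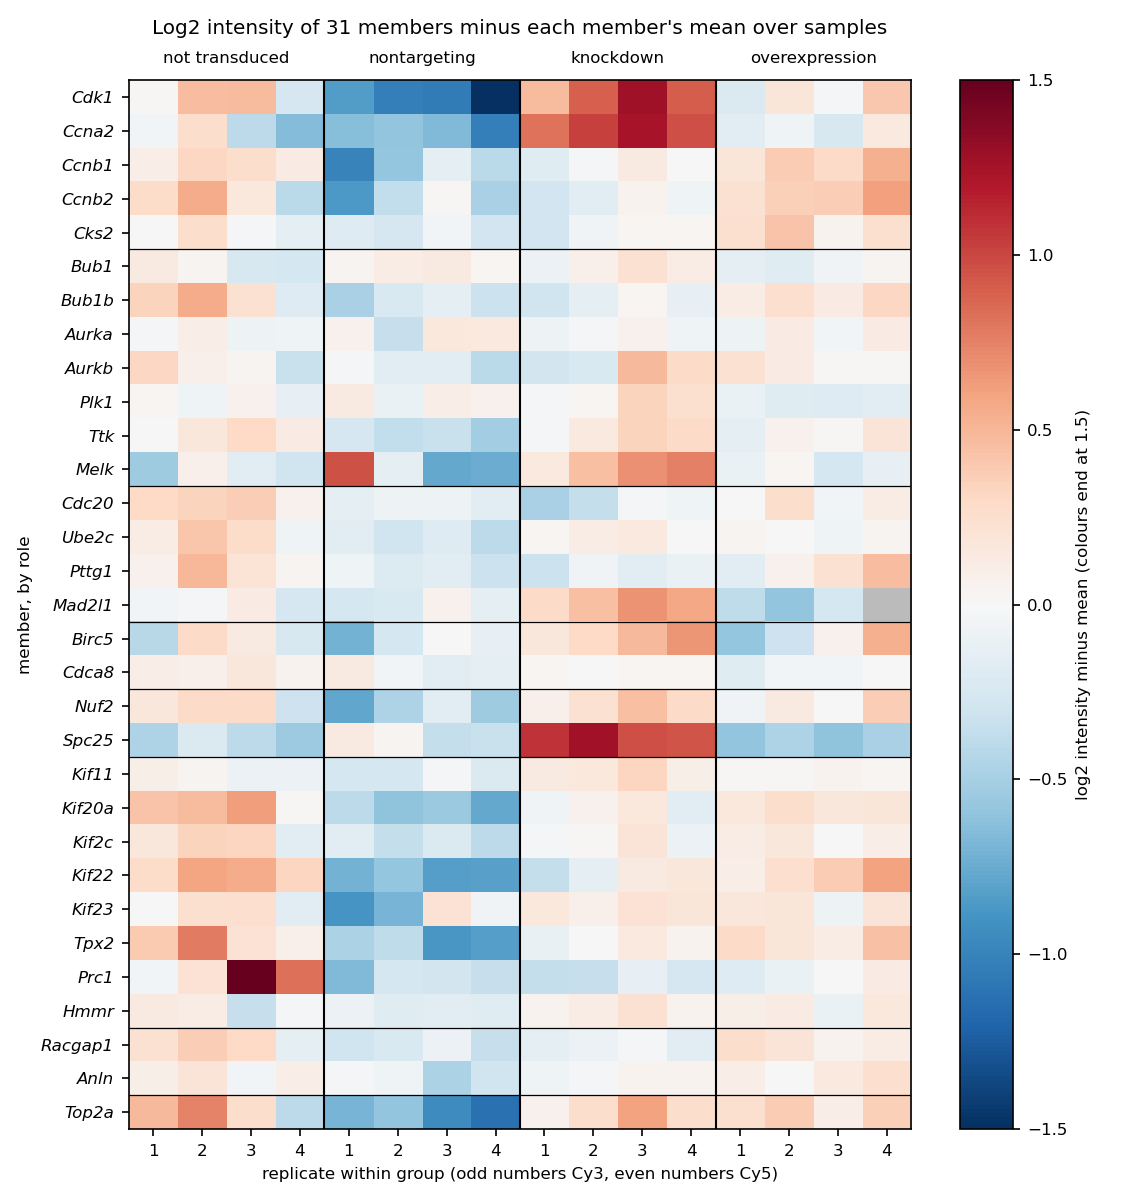
Each row is a tested member, grouped by role, and each column a sample. Colour gives the log2 intensity minus the member's mean over the samples (grey, no value), and the 4 nontargeting columns are blue in most rows, while Cdk1, Ccna2 and Spc25 are red in all 4 knockdown columns.

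Among the cyclins and their kinase, 2 of 5 tested members rose under knockdown, where 10.5% of all genes did. Cdk1 encodes the kinase that drives entry into mitosis, and its 60-base probe lies at chr20:20043755-20043814 (rn4, plus strand). Its log2 intensity was 9.06, 8.87, 8.85 and 8.19 in nontargeting replicates 1 to 4 and 10.37, 10.79, 11.16 and 10.80 in knockdown. It was 9.91, 10.36, 10.37 and 9.64 without virus and 9.68, 10.08, 9.86 and 10.30 under overexpression. Every nontargeting sample was lower than every sample of the other groups, and every knockdown sample was at or above the highest sample without virus. Knockdown against nontargeting differed by 2.04 (SE 0.36, 4.11-fold, adjusted p = 0.00089), and nontargeting against not transduced by -1.33 (SE 0.36, adjusted p = 0.0164). Knockdown against not transduced, at 0.71 (SE 0.36, adjusted p = 0.241), did not pass the test.

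Ccna2 encodes cyclin A2, which acts in S phase and G2 with CDK2 and CDK1 (probe at chr2:123063059-123063118, minus strand). Its levels were 8.08, 8.13, 8.06 and 7.69 in nontargeting, 9.53, 9.75, 9.96 and 9.69 in knockdown, 8.68, 8.98, 8.33 and 8.07 without virus and 8.56, 8.65, 8.48 and 8.87 under overexpression. The 4 knockdown samples stood above all 12 others. The rise was 1.74 against nontargeting (SE 0.24, 3.34-fold, adjusted p = 0.000105) and 1.21 against not transduced (SE 0.24, adjusted p = 0.00478). A dimmer second probe of Ccna2 rose by 0.93 against nontargeting (adjusted p = 0.00219, over all probes) and differed by 0.60 from not transduced, which missed the threshold (adjusted p = 0.0506).

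Ccnb1 encodes cyclin B1, the partner of CDK1 at mitotic entry (probe within chr2:31574809-31575048, minus strand). It measured 8.90, 9.11, 9.07 and 8.93 without virus, 7.80, 8.22, 8.67 and 8.40 in nontargeting, 8.62, 8.78, 8.94 and 8.80 in knockdown and 8.98, 9.18, 9.09 and 9.34 under overexpression. The nontargeting samples lay below all samples without virus but overlapped with knockdown. It fell by 0.73 in nontargeting against not transduced (SE 0.20, adjusted p = 0.0165). Knockdown exceeded nontargeting by 0.51 (SE 0.20, adjusted p = 0.0823). With the replicate number as a block in place of the dye, the same 0.51 had an SE of 0.15 and passed (adjusted p = 0.0217). A second probe, tied to Ccnb1 only through its accession and not counted, rose by 0.64 under knockdown (adjusted p = 0.0134). Ccnb2 and Cks2, a small CDK-binding subunit, differed from nontargeting by 0.31 and 0.12 under knockdown and did not pass.

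Of 7 tested mitotic kinases only Ttk rose under knockdown, where 10.5% of all genes did. A count this small says little about the kinases as a role. Ttk, or MPS1, starts the spindle checkpoint at unattached kinetochores (probe at chr8:88944528-88944587, plus strand). Its values were 7.90, 8.06, 8.19 and 8.02 without virus, 7.64, 7.52, 7.56 and 7.37 in nontargeting, 7.86, 8.04, 8.22 and 8.18 in knockdown and 7.76, 7.95, 7.91 and 8.08 under overexpression. The nontargeting samples were the 4 lowest, and the other groups overlapped. Ttk rose by 0.55 under knockdown (SE 0.15, 1.47-fold, adjusted p = 0.0134) and fell by 0.52 in nontargeting against not transduced (SE 0.15, adjusted p = 0.0187). Its second probe was well above background in 2 samples and was not tested.

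The polo-like kinase Plk1, the Aurora kinases Aurka and Aurkb and the checkpoint kinase Bub1 showed log2 differences of 0.09, -0.03, 0.26 and 0.00 between knockdown and nontargeting. Plk1 averaged 9.49 ± 0.11 in nontargeting and 9.58 ± 0.17 in knockdown (SD, n = 4), and its 95% interval for the difference ran from -0.15 to 0.34. Melk, a kinase of proliferating progenitors, differed by 0.68 (SE 0.40, adjusted p = 0.256). Its nontargeting samples were far apart, at 8.93, 7.84, 7.21 and 7.24. Bub1b, which encodes the checkpoint protein BUBR1, differed by 0.17 under knockdown and by -0.53 in nontargeting against not transduced (adjusted p = 0.0648), while another of its probes fell by 0.83 in the latter comparison (adjusted p = 0.0185, over all probes).

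Among checkpoint and anaphase-promoting factors, 1 of 4 rose under knockdown, where 10.5% of all genes did. This count too is small. Mad2l1 encodes MAD2, which blocks the anaphase-promoting complex while kinetochores are unattached (probe at chr4:96384801-96384860, plus strand). It measured 9.07, 9.11, 9.40 and 9.20 in nontargeting and 9.62, 9.79, 10.01 and 9.92 in knockdown. Without virus it was 9.29, 9.32, 9.46 and 9.08, and under overexpression 8.95, 8.75 and 9.07 in replicates 1 to 3, the spot of replicate 4 having been flagged and left out. Knockdown was above all other samples. The rise was 0.64 against nontargeting (SE 0.15, 1.56-fold, adjusted p = 0.00875) and 0.55 against not transduced (SE 0.15, adjusted p = 0.0382). The latter call was kept in 19 of 32 alternative analyses, with a difference of 0.42 to 0.83.

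Ube2c, its ubiquitin-conjugating enzyme, fell by 0.45 in nontargeting against not transduced (SE 0.16, adjusted p = 0.0493) and differed by 0.34 under knockdown (adjusted p = 0.145). That fall kept its call in 13 of 33 alternative analyses. Cdc20, the activator of the complex, differed by -0.12 between knockdown and nontargeting, and Pttg1, which encodes securin, by 0.03. Cdc20 and Pttg1 were lower in every nontargeting and every knockdown sample than in every sample without virus, and neither passed the test there (for Cdc20 in knockdown against not transduced the difference was -0.50, SE 0.16, adjusted p = 0.0540).

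Both tested kinetochore members, of 5 listed, rose under knockdown, where 10.5% of all genes did. Spc25 and Nuf2 encode subunits of the NDC80 complex, which holds spindle microtubules at the kinetochore. Spc25 (60-base probe spread over chr3:51361769-51363895, minus strand) measured 8.64, 8.89, 8.71 and 8.56 without virus, 9.24, 9.14, 8.75 and 8.77 in nontargeting, 10.19, 10.36, 10.07 and 10.05 in knockdown and 8.51, 8.64, 8.50 and 8.62 under overexpression. Knockdown stood above the 12 other samples, and nontargeting overlapped with not transduced. The rise was 1.19 against nontargeting (SE 0.15, 2.29-fold, adjusted p = 4.28e-05) and 1.47 against not transduced (SE 0.15, adjusted p = 2.37e-05).

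The Nuf2 probe also spans a wider stretch (chr13:85286979-85292071, minus strand). It was 8.76, 8.87, 8.88 and 8.28 without virus, 7.81, 8.13, 8.43 and 8.05 in nontargeting, 8.66, 8.82, 9.04 and 8.88 in knockdown and 8.53, 8.72, 8.59 and 8.96 under overexpression. Knockdown lay above nontargeting without overlap and overlapped with the virus-free samples. Its rise of 0.75 over nontargeting was close to the threshold (SE 0.25, adjusted p = 0.0459) and kept its call in 17 of 34 alternative analyses. Of the chromosomal passenger partners, Birc5, which encodes survivin, exceeded nontargeting by 0.68 (SE 0.29, adjusted p = 0.114). Birc5 passed with the replicate number as a block (SE 0.22, adjusted p = 0.0407). Cdca8, which encodes borealin, differed by 0.07.

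Kinesins and spindle factors, the role with the most tested members, gave the most calls. Under knockdown 4 of 8 rose, where 10.5% of all genes did. In nontargeting against not transduced 4 of 8 fell, where 11% of all genes did. The risen include Kif11 and the fallen Prc1, which entered the test only with detections in the group where they were higher. Kif22, a chromosome-bound kinesin (probe at chr1:186205165-186205224, minus strand), measured 8.65, 8.97, 8.93 and 8.70 without virus, 7.67, 7.80, 7.55 and 7.56 in nontargeting, 8.02, 8.24, 8.51 and 8.55 in knockdown and 8.48, 8.63, 8.76 and 8.98 under overexpression. The knockdown samples lay between the nontargeting and the virus-free samples, with no overlap on either side. Kif22 rose by 0.68 over nontargeting (SE 0.17, 1.61-fold, adjusted p = 0.00769) and fell by 1.17 in nontargeting against not transduced (SE 0.17, adjusted p = 0.000158). Knockdown differed from not transduced by -0.48 (SE 0.17, adjusted p = 0.0780), and this passed once the replicate number was the block (SE 0.14, adjusted p = 0.0436).

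Kif20a, a kinesin of the central spindle and cytokinesis (probe at chr18:27108170-27108229, plus strand), was 9.06, 9.10, 9.25 and 8.65 without virus, 8.23, 8.02, 8.07 and 7.86 in nontargeting, 8.58, 8.69, 8.78 and 8.46 in knockdown and 8.79, 8.89, 8.80 and 8.81 under overexpression. Nontargeting was the lowest group without overlap. It rose by 0.58 under knockdown (SE 0.18, adjusted p = 0.0320) and fell by 0.97 in nontargeting against not transduced (SE 0.18, adjusted p = 0.00146). Tpx2, which activates Aurora A on spindle microtubules (probe at chr3:143232410-143232469, plus strand), was 8.33, 8.72, 8.15 and 8.01 without virus, 7.47, 7.56, 7.06 and 7.11 in nontargeting, 7.83, 7.93, 8.09 and 7.99 in knockdown and 8.22, 8.12, 8.05 and 8.38 under overexpression. Only 1 of its 4 nontargeting values was well above background, and all 4 were lower than the 12 other samples. Tpx2 rose by 0.66 under knockdown (SE 0.19, adjusted p = 0.0206) and fell by 1.00 in nontargeting against not transduced (SE 0.19, adjusted p = 0.00160).

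Kif11, or Eg5, the motor that pushes spindle poles apart, was near background (probe at chr1:241715804-241715863, plus strand). It measured 7.30, 7.26, 7.13 and 7.13 without virus, 6.95, 6.95, 7.20 and 7.0 in nontargeting, 7.35, 7.38, 7.54 and 7.30 in knockdown and 7.23, 7.24, 7.27 and 7.25 under overexpression. It was well above background in 2 knockdown samples, in 1 without virus, in 1 under overexpression and in no nontargeting sample. That is the smallest number of detected samples allowed, so Kif11 entered the test only with its knockdown detections. The fitted difference was 0.36 (SE 0.11, adjusted p = 0.0247). With nontargeting values raised to the dimmest signal counted as above background in their sample, knockdown was 1.18-fold higher. The knockdown mean also holds samples not well above background, and undetected spots can be brighter than that level, so this is not a strict bound. A second Kif11 probe was above background in 0 samples.

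Prc1, which bundles microtubules in the central spindle, was not well above background in any nontargeting sample. It was so in 3 samples without virus, 1 of knockdown and 2 of overexpression. With a limit of 4 samples, Prc1 entered the test only with its virus-free detections. It measured 7.36, 7.62, 9.18 and 8.22 without virus and 6.74, 7.13, 7.12 and 7.05 in nontargeting. Virus-free replicates 3 and 4, which shared an array, were the highest. With nontargeting values raised as for Kif11, Prc1 was 1.87-fold lower in nontargeting, which is not a strict bound either. The fitted difference was -1.09 (SE 0.36, adjusted p = 0.0406), and the call was kept in 17 of 32 alternative analyses. Without the not transduced array of replicates 3 and 4 the difference was -0.48 and did not pass (adjusted p = 0.0965), without that of replicates 1 and 2 it was -1.69 (adjusted p = 0.00544), and with Agilent's processed signals it was -3.07 (adjusted p = 0.00891). Kif23, a motor of the central spindle, and Kif2c, which depolymerises microtubules, exceeded nontargeting by 0.52 and 0.32 under knockdown and did not pass. The 2 nontargeting arrays were apart for Kif23, with 8.27 and 8.45 on one and 9.37 and 9.10 on the other. Hmmr, a spindle-associated hyaluronan receptor, had 5 samples above background with its named probe and did not pass. A probe tied to Hmmr only through its accession, and not counted, was higher than not transduced by 0.69 in nontargeting (adjusted p = 0.000185) and by 0.93 in knockdown (adjusted p = 4.28e-05).

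Neither tested cytokinesis member, Racgap1 or Anln, passed in any comparison. The Anln probe was well above background in 7 samples. It is placed on chromosome 17 of rn4, while the promoter listed for Anln lies on chromosome 8 of GRCr8. Whether this probe reports Anln was not tested. Racgap1, which controls RhoA at the cleavage site, differed by -0.42 in nontargeting against not transduced (SE 0.16, adjusted p = 0.0629). Its 2 other probes fell by 0.62 and 0.84 in that comparison (adjusted p = 0.0289 and 0.00857, over all probes).

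Top2a encodes topoisomerase II alpha, which untangles sister chromatids (probe at chr10:87771459-87771518, minus strand). It was 8.96, 9.22, 8.74 and 8.08 without virus, 7.78, 7.89, 7.53 and 7.36 in nontargeting, 8.54, 8.74, 9.08 and 8.74 in knockdown and 8.72, 8.86, 8.58 and 8.83 under overexpression. The nontargeting samples were the 4 lowest, and the other 3 groups overlapped. Top2a rose by 1.14 under knockdown (SE 0.28, 2.20-fold, adjusted p = 0.00793) and fell by 1.11 in nontargeting against not transduced (SE 0.28, adjusted p = 0.00940). A second, dimmer probe, above background in 7 samples, differed by 0.19 and -0.09 in these comparisons and did not pass.

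**Figure D3:**
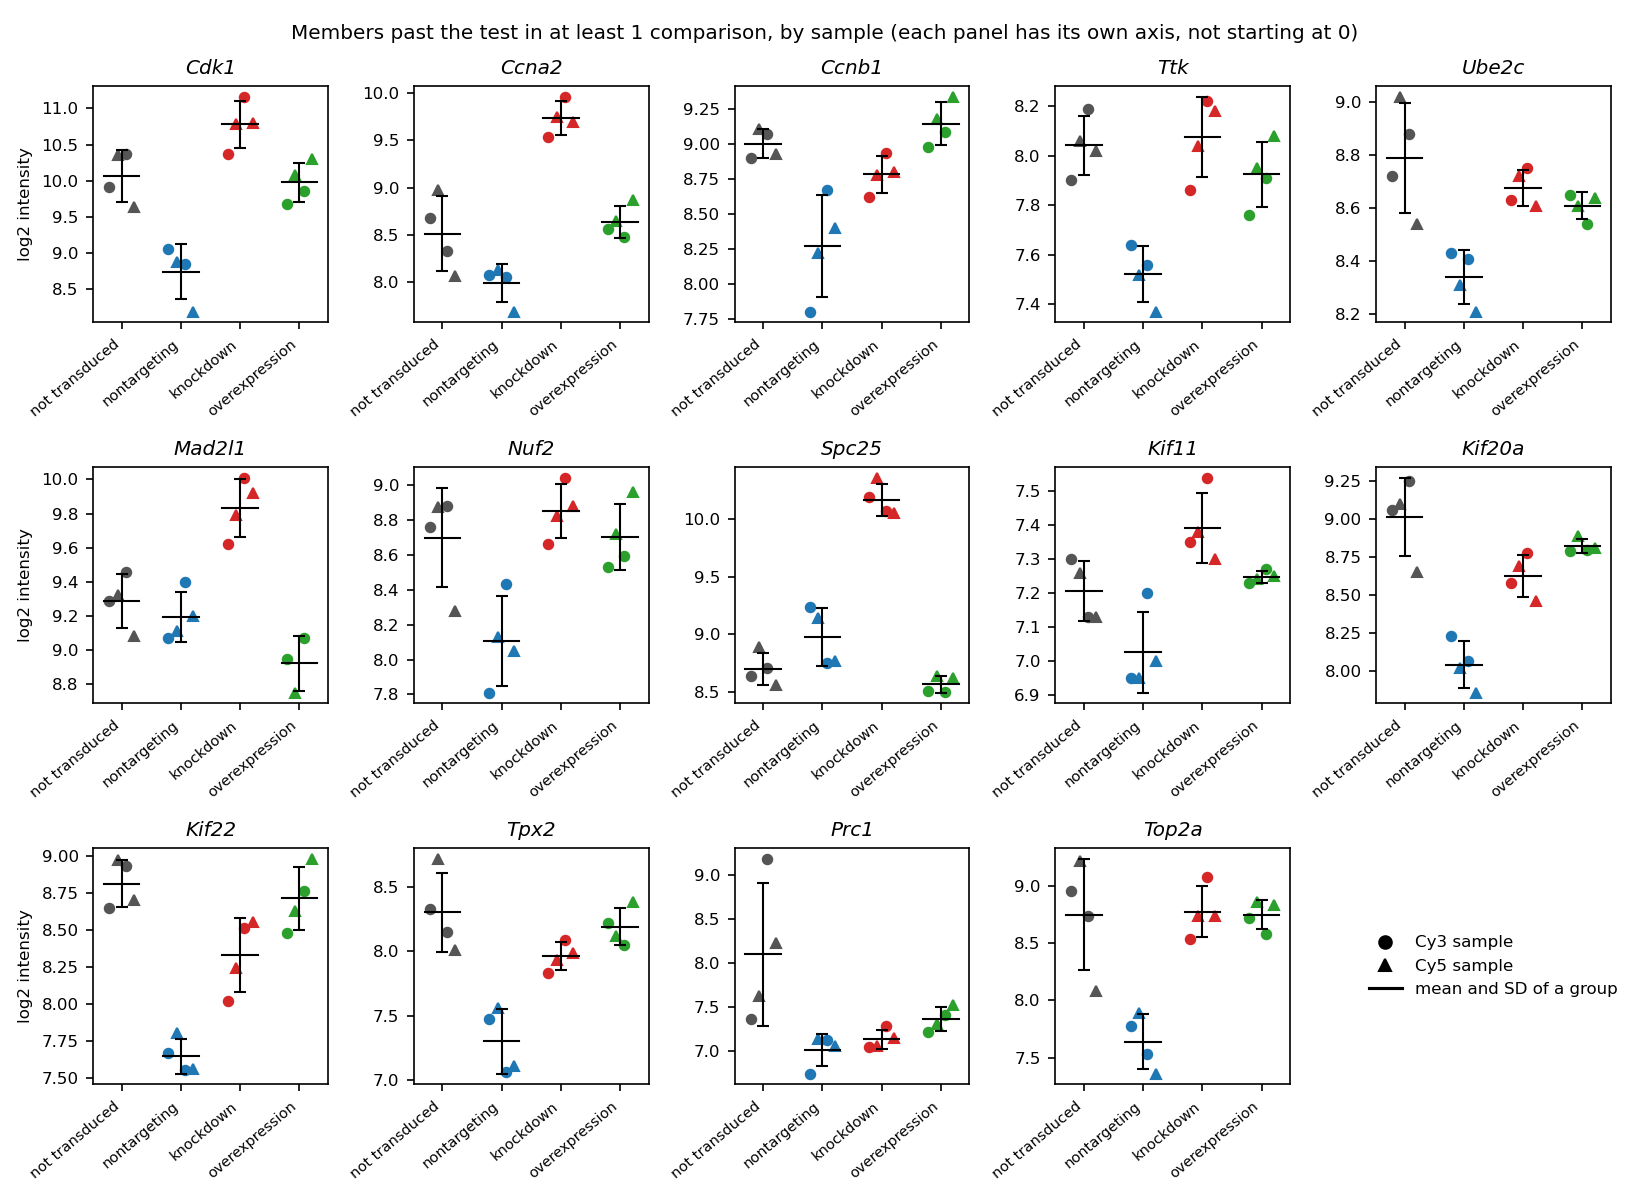
Log2 intensity of the 14 members past the test in at least 1 pair of groups, for each sample (circles Cy3, triangles Cy5), with the mean and SD of each group of 4 (3 values for Mad2l1 under overexpression). Knockdown stands above all other samples for Ccna2, Mad2l1 and Spc25, and nontargeting below all others for Cdk1, Ttk, Kif20a, Kif22, Tpx2, Top2a and Ube2c.

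Several of the 5 members without a named probe could be followed through probes whose array description names the gene. These probes were chosen after the annotation was seen and are not counted. The probe described as Cdca3 averaged 9.29 without virus, 7.86 in nontargeting, 8.79 in knockdown and 9.16 under overexpression. It rose by 0.93 under knockdown (adjusted p = 0.0269) and fell by 1.43 in nontargeting against not transduced (adjusted p = 0.00195). A brighter probe described as Cdca3-like differed by 0.82 (adjusted p = 0.0569) and -0.44 (adjusted p = 0.306) in these comparisons and did not pass. For Cdkn3, a phosphatase that acts on CDKs, the means were 9.46, 8.79, 9.63 and 9.68, with a rise of 0.84 under knockdown (adjusted p = 0.00333) and a fall of 0.67 in nontargeting (adjusted p = 0.0140). A probe for Ect2, which activates RhoA in cytokinesis, differed by 0.51 under knockdown and did not pass (adjusted p = 0.0739).

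Against cultures without virus, knockdown raised 3 of the 31 members and lowered 0, where 10.1% of all genes passed (4.86% rose and 5.23% fell). The 3 were Ccna2, Spc25 and Mad2l1. The median log2 difference was -0.01, against 0 over all genes, and 5 members were higher and 5 lower without overlap, each of which held for 14.8% of all genes. The 5 higher members were Cdk1, Ccna2, Spc25, Melk and Mad2l1 and the 5 lower ones Kif22, Cdc20, Cdca8, Prc1 and Pttg1. With the replicate number as a block 6 members passed, the same 3 that rose and a fall of Kif22, Cdc20 and Prc1 (adjusted p = 0.0436, 0.0322 and 0.0399). Slide and group cannot be told apart here either. Without not transduced replicate 4 there were 5 members past the test (2 risen, 3 fallen), without the not transduced array of replicates 3 and 4 there was 1, and without the nontargeting array of replicates 1 and 2 there were 5.

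PRR7 overexpression left the set without a call against the virus-free cultures of the same slide. In limma 0 of 31 members rose and 0 fell, and 0.00436% of all genes (1 gene) passed. At an unadjusted p under 0.05 there was 1 member, Mad2l1, with a difference of -0.36 (SE 0.16, adjusted p = 1), where 3.87% of all genes met that limit. The log2 differences ran from -0.73 in Prc1 to 0.24 in Ccnb2, with a median of -0.03. Cdca8 and Mad2l1 were lower in every measured overexpression sample, a separation that held for 4.52% of all genes, and 0 members were higher in this way, against 2.27%. The 95% interval of the difference for Cdk1 ran from -0.86 to 0.68 and for Top2a from -0.59 to 0.59.

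The knockdown difference was larger than the overexpression difference, each taken within its slide, for 5 members: Cdk1 (2.13, SE 0.51, adjusted p = 0.0151), Ccna2 (1.62, SE 0.34, adjusted p = 0.00605), Kif22 (0.78, SE 0.23, adjusted p = 0.0456), Spc25 (1.32, SE 0.21, adjusted p = 0.000882) and Mad2l1 (1.00, SE 0.22, adjusted p = 0.00968). The Kif22 call was kept in 14 of 33 alternative analyses and was lost with processed signals, quantile normalisation and each array as 1 value. In this test of the difference 0 members were smaller, and 9.87% of all genes passed (5.56% larger and 4.32% smaller). Without the knockdown array of replicates 3 and 4, or without the overexpression array of replicates 1 and 2, 2 members passed, and without the nontargeting array of replicates 1 and 2 there were 10. With the replicate number as a block Top2a, Kif20a and Ttk passed as well (adjusted p = 0.0328, 0.0252 and 0.0303).

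**Figure D4:**
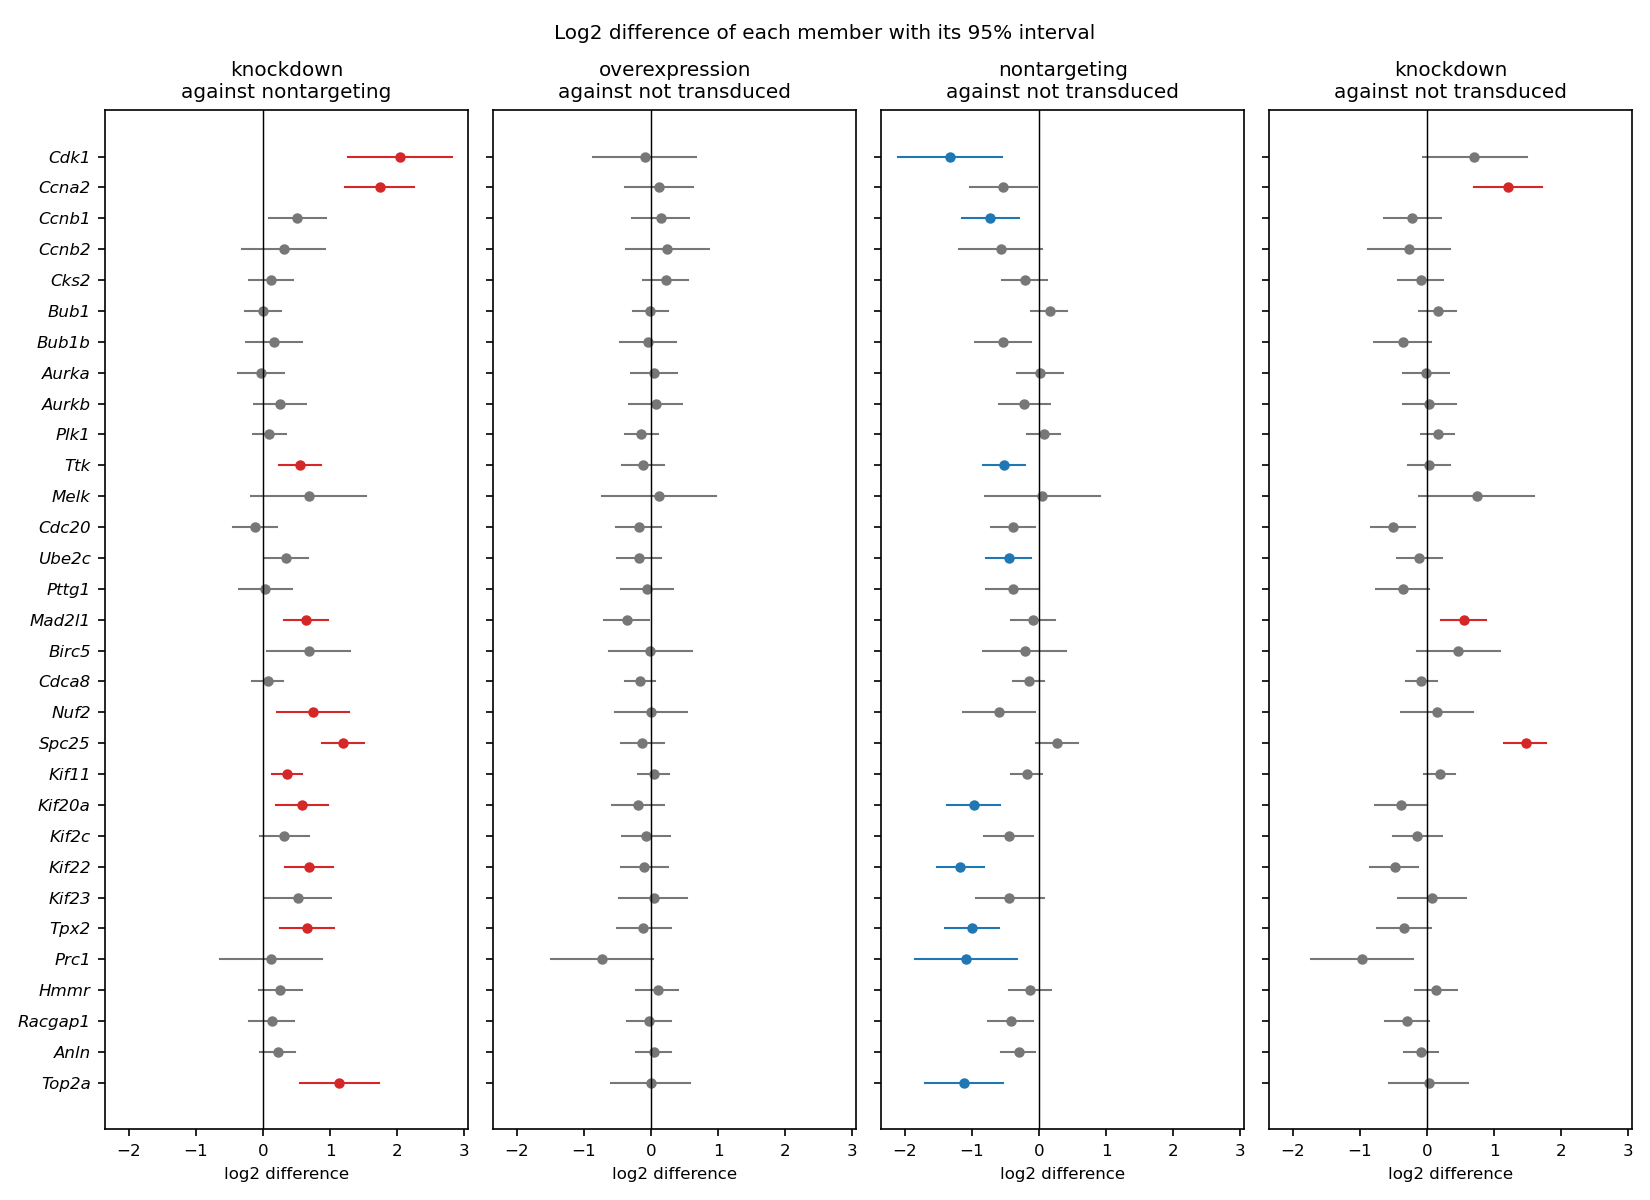
Points give the log2 difference of each of the 31 members in 4 comparisons and lines its 95% interval (red, rose; blue, fell; grey, not past the test). Knockdown against nontargeting has 11 red members, overexpression against not transduced has no coloured one, nontargeting against not transduced has 9 blue and knockdown against not transduced 3 red.

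The rise under knockdown depended on the arrays included. Without the knockdown array of replicates 3 and 4 it held for 3 members, Cdk1, Ccna2 and Spc25. Agilent's processed signals, scaled to the 75th percentile of each sample, gave the same 11 calls with a median difference of 0.89, where all genes had a median of -0.11. Within a dye the median was 0.30 in Cy3 (26 of 31 above 0) and 0.36 in Cy5 (30 of 31).

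Other cell cycle genes were taken from lists, whose counts stand beside the shares of all genes. In knockdown against nontargeting 10.5% of all genes rose and 11% fell. Against not transduced, 4.86% rose and 5.23% fell in knockdown, and 11.5% rose and 11% fell in nontargeting. Of 43 S phase and replication genes 28 rose and 1 fell under knockdown against nontargeting, with a median of 0.75, and 29 rose and 0 fell against not transduced. E2f1, the S phase transcription factor, rose by 2.16 (SE 0.12), the replicative helicase subunit Mcm3 by 3.1 (SE 0.23), the helicase cofactor Cdc45 by 1.29 (SE 0.10) and the fork protection factor Timeless by 1.87 (SE 0.15) over nontargeting. Between nontargeting and not transduced 11 of the 43 rose and 4 fell, with a median of 0.12. In the median over its genes, S phase expression in every knockdown sample (0.47 to 0.66 above the genes' means) exceeded every other sample (-0.34 to -0.12). The same summary of the mitosis set was -0.04 to 0.19 in knockdown, -0.14 to 0.27 without virus, 0.01 to 0.17 under overexpression and -0.34 to -0.17 in nontargeting, so that nontargeting stood below and the other 3 groups overlapped.

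**Figure D5:**
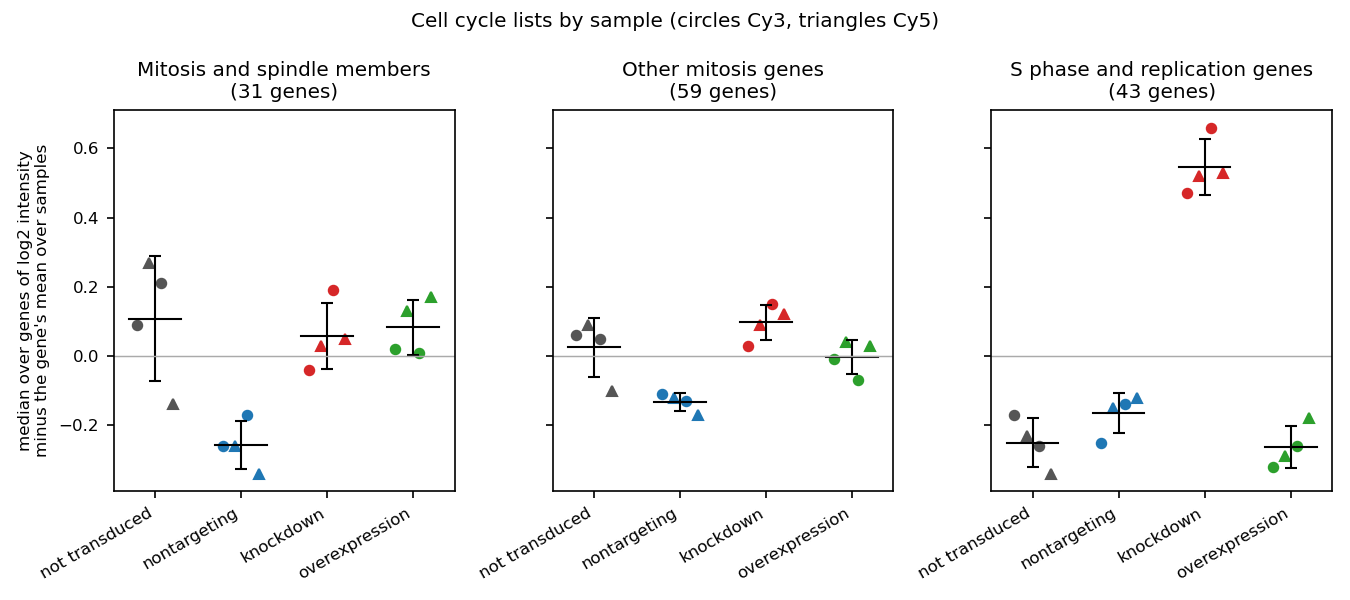
Each point is 1 sample: the median, over the genes of a list, of the log2 intensity minus the gene's mean over samples (circles Cy3, triangles Cy5), with the mean and SD of each group. The 31 mitosis and spindle members are lowest in nontargeting, whereas the 43 S phase genes are highest in knockdown and overlap among the other 3 groups.

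A list of other mitosis genes, 59 of 84 tested, gave 16 risen and 3 fallen under knockdown against nontargeting (10.5% and 11% of all genes). In nontargeting against not transduced 6 rose and 13 fell (11.5% and 11% of all genes). Wee1, which restrains CDK1, and Espl1, the separase that cuts cohesin, rose by 1.38 (SE 0.13) and 1.32 (SE 0.14) under knockdown. Mybl2, a transcription factor of late cell cycle genes, rose by 0.79 (SE 0.15), while the CDK-activating phosphatase Cdc25b fell by 0.77 (SE 0.15). Of 11 tested cell cycle inhibitors and pocket proteins 2 rose and 3 fell under knockdown against nontargeting, beside 10.5% and 11% of all genes. The list median was -0.08, against -0.02 over all genes. In that comparison the retinoblastoma gene Rb1 fell by 0.82 (SE 0.14) and the antiproliferative gene Btg2 by 1.04 (SE 0.22). Cdkn1b, which encodes the CDK inhibitor p27, fell by 0.88 (SE 0.25), and Gadd45a, a stress gene of the G2 checkpoint, rose by 0.95 (SE 0.21). Against not transduced 2 of the list rose and 1 fell under knockdown, with a median of 0.03.

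Some glial and neuronal markers passed in the same comparisons, beside 10.5% of all genes that rose and 11% that fell under knockdown and 11% that fell between the controls. Of 12 astrocyte markers 4 rose and 1 fell under knockdown against nontargeting and 3 fell in nontargeting against not transduced, and of 10 oligodendrocyte lineage markers 3 rose and 2 fell, respectively. The intensities of 11 astrocyte markers with a value in every sample summed to 97600 to 149000 without virus, 77800 to 101000 in nontargeting, 99500 to 113000 in knockdown and 129000 to 160000 under overexpression. For 9 oligodendrocyte lineage markers the sums were 3310 to 4550, 2420 to 2670, 3450 to 3990 and 3370 to 3830 in the same order. Of 11 markers of progenitors and radial glia 2 rose under knockdown (Nes and Prom1) and 2 fell in nontargeting against not transduced, and 8 of them summed to 7820 to 13800, 8190 to 9370, 11600 to 14700 and 8910 to 12400. The median difference of the 11 was 0.08 in knockdown against nontargeting. In knockdown against not transduced 0 rose and 2 fell (4.86% and 5.23% of all genes). Their centred median per sample overlapped between knockdown (-0.16 to 0.03) and nontargeting (-0.26 to -0.11). Of 17 neuronal markers 4 rose and 1 fell under knockdown and 5 fell in nontargeting, with sums over 14 of them of 227000 to 259000, 229000 to 255000, 226000 to 260000 and 211000 to 228000. Sums weigh the brightest markers most. The median over the 17 neuronal markers, minus each gene's mean, was 0.07 to 0.34, -0.26 to 0.02, -0.1 to 0.01 and 0.02 to 0.12. By that median nontargeting lay below the samples without virus. Among 6 microglial and 7 fibroblast or vascular markers 0 passed under knockdown against nontargeting. The sums of the mitosis set over 30 members were 10400 to 14000, 8460 to 9520, 11800 to 14900 and 11100 to 13100. The part of these cell types in the mitosis values was not tested.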

How the data were processed

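RNA of 16 cultures was hybridised to 8 2-colour Agilent rat arrays. Per the file headers, the deposited scanner files hold linear intensities of each spot and dye from Feature Extraction 10.7.3.1, with probe positions on rn4. The deposited series matrix, used as an alternative, holds log2 values whose column medians are 0 and which followed log2(signal minus background) with a slope near 1. One label field names dentate gyrus of hormone-treated adult animals, against the culture protocol and the other labels, and was not used.

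Each dye was treated as its own sample. Mean signals were background-corrected in limma 3.58.1 (normexp, offset 50), loess-normalised within arrays and scaled between arrays (Aquantile), and flagged spots were left out. A probe was kept with 4 or more samples well above background, at least 12 values and at least 2 per group, and a gene took its probe of highest mean. The offset compresses differences of dim probes. limma was fitted over all samples on group and dye, with a random effect for the array (within-array correlation 0.569), and p-values were adjusted over 22911 genes (threshold 0.05). The script was tested on simulated data. An alternative analysis changes 1 choice or leaves out 1 sample or array. The processed signals and the series matrix replace the background correction and normalisation together.

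Samples with the same replicate number deviated together in knockdown and nontargeting (r = 0.134, 0.151, 0.257 and 0.192) and in knockdown and not transduced (0.168, 0.165, 0.265 and 0.188). The numbers are tied to dye, and with the dye removed the values were 0.136, 0.0709, 0.146 and 0.061, and 0.109, 0.0506, 0.125 and 0.0265. After that removal, only replicate 3 of knockdown matched its own number best in these comparisons. Before it, nontargeting and not transduced gave 0.0475, 0.206, 0.272 and 0.33, and overexpression and not transduced 0.243, 0.118, 0.201 and -0.186. The main fit used the dye, and the replicate block was an alternative. The members were named by symbol, all of them counted. Members past the test on a slide, and Top2a, Cdk1 and Ccnb1, were given by sample, and up to 4 genes per other list, those with the smallest p under knockdown. The members and lists were chosen with earlier results of these data known. Promoters came from the RefSeq table. The number of arrays limits the precision.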

Additional observations from a re-analysis of the deposited data

Results flagged for a closer look

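Groups with 4 measured values were checked, for 31 members in 4 groups except Mad2l1 under overexpression, which had 3 values. In 2 of these groups a sample lay far from the others by Dixon's criterion, which chance gives in about 1 in 20 groups. Ccna2 in nontargeting replicate 4 was 7.69 on the log2 scale, with the nearest sample at 8.06. Kif23 in overexpression replicate 3 was 9.08, with the nearest at 9.32.

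The knockdown difference (against nontargeting) exceeded the overexpression difference (against not transduced) on the log2 scale by 2.13 for Cdk1 (adjusted p = 0.0151), 1.62 for Ccna2 (0.00605), 0.78 for Kif22 (0.0456), 1.32 for Spc25 (0.000882) and 1.00 for Mad2l1 (0.00968), each tested in limma and adjusted over all genes. The knockdown control received a virus and the overexpression control did not, and the part of that difference between controls was not tested.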

How the results depend on the processing

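Counts of members past the test are given over the alternatives run. The share of all genes that passed under each alternative is not given. The counts therefore describe how the calls depend on processing, not how members compare with other genes. With the array not treated as a block there were 17 for knockdown against nontargeting (11 as reported), 18 for nontargeting against not transduced (9), 10 for knockdown against not transduced (3) and 12 for the knockdown difference minus the overexpression difference (5). The deposited series matrix, with 25 members tested, gave 5 and 12 for the last 2 of these, and the replicate block gave 6 and 8. For knockdown against nontargeting the replicate block gave 13 and for nontargeting against not transduced 13, and it changed no call under overexpression. Leaving out 1 sample gave 8 to 13, 7 to 15, 2 to 5 and 4 to 7 in the order above, and leaving out 1 array gave 3 to 11, 5 to 10, 1 to 5 and 2 to 10. The cause was not tested. Overexpression against not transduced gave 0 under each alternative. The median over members ranged from 0.30 to 0.98, -0.92 to -0.31, -0.13 to 0.29 and 0.32 to 1.05, and no call changed sign. Cdk1, Ccna2 and Spc25 kept their rise over nontargeting in all 34 alternatives. Each group had 2 arrays, and a mean over each array's 2 samples gave 9 members over nontargeting. Kif11 and Prc1 are counted among the calls, but neither was well above background in any nontargeting sample. Each entered the test only with detections in the group where its call was higher. The sizes of their differences are uncertain.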
